A study of Mus musculus with 6 samples.

Results

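The genes described here carry the insulin signal from the receptor to glucose uptake and use in skeletal muscle: Insr, Igf1r, Irs1, Irs2, Akt1, Akt2, Tbc1d4, Tbc1d1, Slc2a4 and Pdk4. Their accessible chromatin was measured by ATAC-seq, in which the transposase Tn5 cuts DNA that nucleosomes leave exposed, and the fragment ends counted in an interval follow its accessibility. An interval was taken as a member where it overlapped the body of one of these 10 genes, or lay within 1 kb of one of their transcription start sites (TSS), by the GENCODE vM1 annotation of the mouse genome mm9. This gave 65 of the 39768 intervals of the table. Tbc1d1 had 15 of them, Igf1r 11, Slc2a4 9, Akt2 and Tbc1d4 7 each, Insr 6, Irs1 5, Irs2 and Pdk4 2 each, and Akt1 1. A total of 32 had their midpoint within 1 kb of a TSS of the gene and are called promoter intervals, and the other 33 are called distal. Over all intervals a TSS of any gene counts, so that Irs2 Peak_17194, distal as a member, is a promoter interval there. The pair of Irs2 intervals also falls within the rule for the long noncoding gene 9530052E02Rik.

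All mice were C57BL/6 by the labels (C57BL/6N in the methods), 7 weeks old, and homozygous for floxed alleles of both genes of the histone variant H2A.Z, written H2A.Z-1 flox/flox and H2A.Z-2 flox/flox. The 3 CTL libraries came from mice without Cre (HSA CRE -, called WT in the labels) and the 3 libraries labelled H2A.Z dKO, written below as the dKO-labelled libraries, from mice with it (HSA CRE +). The HSA promoter drives Cre in post-mitotic muscle fibres, so that the other cells of the muscle keep H2A.Z. Each library was made from 50000 nuclei, which the labels place in tibialis anterior and isolate by ultracentrifugation, whereas the methods describe hind limb muscle and a Dounce homogenizer. Nothing says which animals gave which library, so p-values measure the spread between these libraries, which may be partly technical. In bulk nuclei, fewer nuclei of a type and less open chromatin per nucleus cannot be told apart.

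Skeletal muscle takes up most of the glucose that insulin clears from the blood. Insulin binds its receptor tyrosine kinase, which phosphorylates the IRS adaptors. These recruit PI3K, PI3K activates the kinase AKT, and AKT inactivates the Rab GTPase-activating proteins TBC1D4 and TBC1D1, which frees vesicles with the glucose transporter GLUT4, the product of Slc2a4, to move to the surface. PDK4 acts further on: it inhibits pyruvate dehydrogenase and so holds back the oxidation of glucose, and it is induced by fasting, when FoxO factors are active.

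The libraries were checked before the groups were compared. Counts in all intervals summed to 3520008 to 6117245 per library. The 2 intervals between the loxP sites of H2afz, the gene of H2A.Z-1, had 79, 69 and 33 fragment ends in the CTL libraries against 57, 52 and 64 in the dKO-labelled ones. Scaled to library size as CPM, that is 12.4 ± 2.83 and 11.3 ± 1.28 (SD, n = 3; exact permutation test, two-sided p = 0.6), so this locus did not tell the groups apart. The library labelled H2A.Z dKO replicate 1 stood apart from the other 5 at promoters: it was the highest library in 36.9% of all 20826 promoter intervals. Marker genes of muscle fibres had intervals for 8 of 10 genes, with summed levels of 364 to 479 CPM in CTL and 390 to 509 CPM in the dKO-labelled libraries. Endothelial markers had intervals for 7 of 8, all 7 of them lower in the dKO-labelled libraries, at 282 to 317 CPM against 243 to 265 CPM (3 at an unadjusted p under 0.05, against 2.37% of all genes in that direction, and 0 adjusted, edgeR). Fibroblast markers gave 140 to 174 CPM for 5 of 7 genes against 167 to 171 CPM, and satellite cell markers gave 32.2 to 50.9 CPM for 2 of 4 against 48.3 to 56.3 CPM. The defining adipocyte genes Adipoq, Lep, Cidec and Fabp4 had no interval, and only Plin1 was counted, at 2.83 to 4.76 CPM against 4.74 to 6.93 CPM. Of 7 macrophage genes only Csf1r had an interval, at 3.28 to 7.36 CPM against 3.03 to 3.51 CPM. The part of these cells in the results below was not tested.

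The stretches of chromatin on which the results turn are shown here as mm9 reference sequence, 200 bases centred on the midpoint of the interval, on the strand of the gene. Capitals mark motif matches on either strand. An E-box reads CANNTG and binds MyoD and other basic helix-loop-helix factors. A GC box, which binds SP1, reads GGGCGG, and a CCAAT box carries the letters of its name. A FoxO site was searched as GTAAACA. The MEF2 site, named after a transcription factor of muscle, was searched by its usual consensus. The first stretch carries the only MEF2 match among the members, in a pair of overlapping Slc2a4 intervals. The second is centred on the Slc2a4 interval that was lowest against CTL. That interval is only 26 bp wide, and the 3 matches marked in its stretch all lie outside it. The Irs1 stretch covers the TSS where H2A.Z dKO replicate 1 was high in all 4 promoter intervals, the Irs2 stretch is the centre of the highest promoter interval of Irs2, upstream of its TSS, the Pdk4 stretch holds the most matches of those shown, and the Igf1r stretch is the member interval with the smallest p among those lower in the dKO-labelled libraries.
Slc2a4 Peak_24940, chr11:69761981-69762180, minus strand: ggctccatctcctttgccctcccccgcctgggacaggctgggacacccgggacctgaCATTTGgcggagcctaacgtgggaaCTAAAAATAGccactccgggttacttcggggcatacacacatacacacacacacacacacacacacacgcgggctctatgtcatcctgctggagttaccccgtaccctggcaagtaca
Slc2a4 Peak_24942, chr11:69762223-69762422, minus strand: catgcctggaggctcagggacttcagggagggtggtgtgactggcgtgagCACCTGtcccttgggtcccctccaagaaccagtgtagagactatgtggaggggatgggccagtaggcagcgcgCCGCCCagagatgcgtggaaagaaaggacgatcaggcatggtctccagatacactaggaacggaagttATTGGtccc
Irs1 Peak_885, chr1:82287973-82288172, minus strand: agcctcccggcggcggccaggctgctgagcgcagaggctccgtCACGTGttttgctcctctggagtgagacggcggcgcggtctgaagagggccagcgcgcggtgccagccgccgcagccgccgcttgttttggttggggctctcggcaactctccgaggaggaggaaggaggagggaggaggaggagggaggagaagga
Irs2 Peak_17195, chr8:11008975-11009174, minus strand: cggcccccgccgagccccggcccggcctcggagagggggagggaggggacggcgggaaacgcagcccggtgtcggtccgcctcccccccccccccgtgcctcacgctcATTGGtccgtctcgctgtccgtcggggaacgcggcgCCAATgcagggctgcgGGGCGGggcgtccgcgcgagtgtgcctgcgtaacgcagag
Pdk4 Peak_12413, chr6:5446616-5446815, minus strand: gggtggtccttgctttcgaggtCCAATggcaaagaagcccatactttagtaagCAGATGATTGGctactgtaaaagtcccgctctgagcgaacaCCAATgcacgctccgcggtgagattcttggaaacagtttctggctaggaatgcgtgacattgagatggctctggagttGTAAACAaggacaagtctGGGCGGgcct
Igf1r Peak_15578, chr7:75274072-75274271, plus strand: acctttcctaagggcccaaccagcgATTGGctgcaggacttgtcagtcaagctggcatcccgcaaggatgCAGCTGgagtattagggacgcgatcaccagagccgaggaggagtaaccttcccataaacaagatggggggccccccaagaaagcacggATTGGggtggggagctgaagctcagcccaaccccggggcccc

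No member passed the test between the groups. Of the 65 intervals, 0 had an adjusted p under 0.05 in the quasi-likelihood test of edgeR, adjusted by the Benjamini-Hochberg method over all 39768 intervals, in which 0 intervals passed (0.0%). At an unadjusted p under 0.05 there were 2 members, against 4.95% of all intervals, where DESeq2 gave 0, against 1.9% of all intervals, and limma voom 2, against 5.03%. One was higher, against 2.64% of all intervals, and one lower, against 2.31%. In all, 39 members were higher and 26 lower in the dKO-labelled libraries, with a median log2 fold change of 0.055 beside 0.012 over all intervals. The 95% confidence interval of the fold change lay within 2-fold in either direction for 63 of the 65, and within 1.5-fold for 35. The groups did not overlap in 6 members, 4 higher (5.22% of all intervals) and 2 lower (5.63%), against 10.8% of all intervals in either direction. The authors listed each interval under CTL, H2A.Z dKO or both groups. All 4 of the higher members were listed in H2A.Z dKO only. Of the 2 lower, Slc2a4 Peak_24942 was listed in H2A.Z dKO only and Igf1r Peak_15578 in both. An interval that entered through H2A.Z dKO alone was picked for signal there, so its direction may be partly set by the listing. The counts of all intervals of a gene were also summed, which lessens counting error where the intervals do not overlap. In Irs1, Slc2a4, Pdk4, Insr, Igf1r and Tbc1d1 some overlap, and the ends they share count more than once in the sum. This raises the level and does not lessen counting error. Of the 10 sums, 0 passed in the same test over 13734 genes (0.0% of them passed), and 0 had an unadjusted p under 0.05 against 4.35% of all genes (also 0 with DESeq2, against 2.46%, and with limma voom, against 4.39%). Every one of the 10 sums had its 95% confidence interval within 1.5-fold, and in none were the groups apart, against 10.7% of all gene sums. The comparison of fold changes with their intervals shows both.

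**Figure D1:**
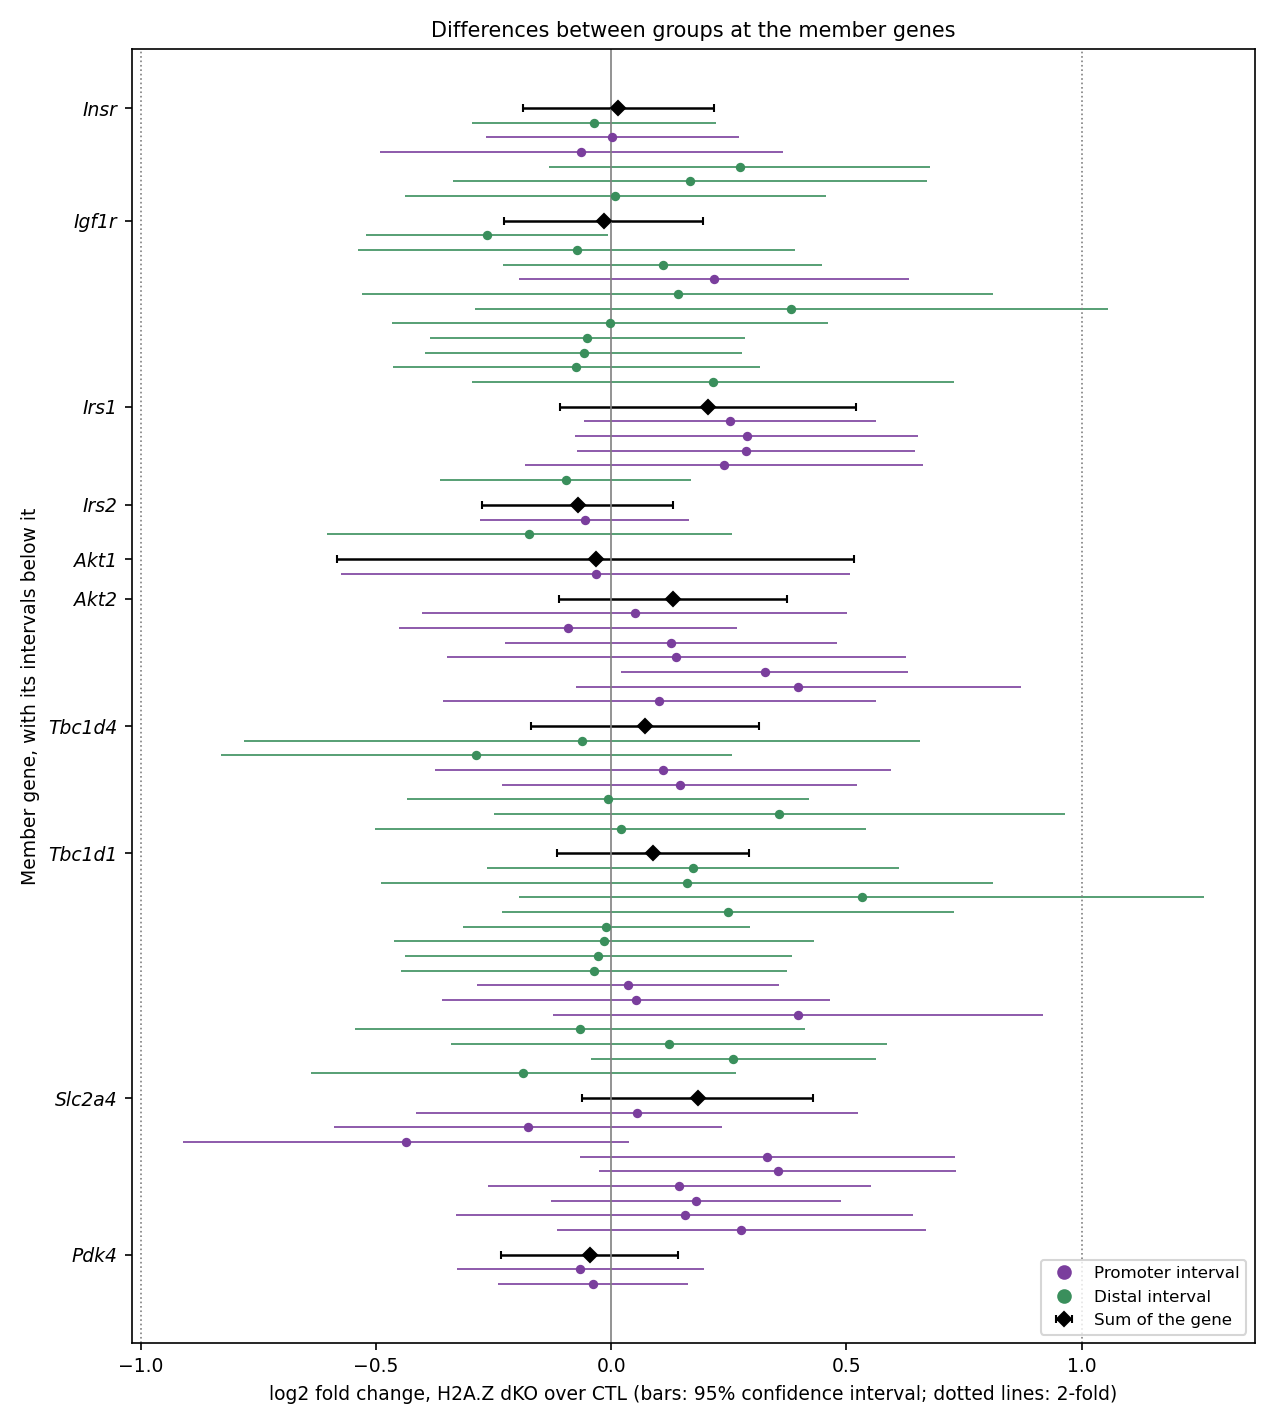
The log2 fold change of the dKO-labelled libraries over CTL, on the x axis, with its 95% confidence interval, for each member gene's sum (diamonds) and, below it, each of its intervals ordered by distance from the nearest TSS, promoter intervals in purple and distal ones in green. All 10 sums have intervals that include 0, and 2 of the 65 single intervals, in Igf1r and Akt2, do not.

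The receptors had nearly the same level in both groups. Insr encodes the insulin receptor and spans chr8:3150922-3279617. Its summed level was 176, 165 and 193 CPM in CTL and 188, 175 and 175 CPM in the dKO-labelled libraries, which lie inside the range of CTL. The level in the dKO-labelled group was 101.1% of CTL (95% confidence interval 87.8% to 116%; log2 fold change 0.015, SE 0.094, adjusted p = 0.992, edgeR). Of the Insr counts, 45.2% came from the pair of promoter intervals that overlap each other at its annotated UTR, and the rest from 4 intervals in introns. The higher of the promoter pair, Peak_17142, had 125, 123 and 143 RPKM (CPM per kilobase of interval) in CTL and 153, 116 and 122 RPKM in the dKO-labelled libraries, a log2 fold change of 0.0023 (SE 0.13). The distal interval with the highest level, Peak_17138, had 93.4, 94.9 and 117 RPKM against 97.3, 100.8 and 98.1 RPKM.

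Igf1r, the receptor for IGF-1, is the longest member and lies at chr7:75097713-75371484. Its sum was 297, 273 and 256 CPM in CTL against 292, 256 and 268 CPM, or 98.9% of CTL (85.4% to 115%; log2 fold change −0.016, SE 0.098, adjusted p = 0.992, edgeR). The ranges of the groups overlapped nearly in full. Only 10.3% of its counts fell in its single promoter interval, Peak_15574. There the levels were 117, 140 and 111 RPKM in CTL and 197, 112 and 117 RPKM in the dKO-labelled libraries, where replicate 1 was high and the other two lay within CTL. The log2 fold change of this interval was 0.22 (SE 0.20), and −0.10 without H2A.Z dKO replicate 1. The intronic interval Peak_15578, at chr7:75273958-75274385, had 157, 153 and 129 RPKM in CTL and 129, 121 and 118 RPKM in the dKO-labelled libraries. It was one of the 2 members with an unadjusted p under 0.05, and all 3 of the dKO-labelled libraries were below all 3 CTL libraries, the closest pair by less than 1 RPKM. Its log2 fold change was −0.26 (SE 0.12, adjusted p = 0.972, edgeR), and −0.34 to −0.21 when each library was left out. The distal interval of highest level, Peak_15579, lies beside it and had 197, 189 and 227 RPKM against 211, 189 and 176 RPKM.

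Of the adaptors, neither Irs1 nor Irs2 passed the test, and for Irs1 1 of the dKO-labelled libraries was above the other 5. IRS1 is the main docking protein between the insulin receptor and PI3K in muscle. The Irs1 sum was steady in CTL, at 316, 319 and 333 CPM. The dKO-labelled libraries had 481, 339 and 294 CPM, so that replicate 1 was above and replicate 3 below every CTL library. The log2 fold change was 0.21 (SE 0.15, adjusted p = 0.967, edgeR) and became −0.026 without H2A.Z dKO replicate 1. Its 4 promoter intervals behaved alike, and 3 of them overlap and share fragment ends. In the highest, Peak_886 (chr1:82287802-82288010), CTL had 251, 251 and 264 RPKM and the dKO-labelled libraries 428, 275 and 229 RPKM. The interval Peak_885, whose centre is printed above, had 224, 207 and 225 RPKM against 343, 238 and 199 RPKM. Without H2A.Z dKO replicate 1 the log2 fold changes of these intervals were −0.020 and −0.0029. Without H2A.Z dKO replicate 3 they were 0.46 and 0.40, with adjusted p = 0.874 for both (edgeR). The distal interval in the intron, Peak_882, did not share this pattern, with 139, 177 and 164 RPKM in CTL and 145, 144 and 157 RPKM.

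IRS2 is the second adaptor of this pathway. Its gene had the steadiest promoter of the members in CTL: Peak_17195, at −616 bp from the TSS, had 240, 239 and 240 RPKM, and 243, 213 and 235 RPKM in the dKO-labelled libraries. Here replicate 1 lay close to CTL and replicate 2 was low. The gene sum was 102 ± 1.58 CPM in CTL and 96.9 ± 6.23 CPM (SD, n = 3), or 95.2% of CTL (82.7% to 109%; adjusted p = 0.982, edgeR). The other interval, Peak_17194 in the exon, had 252, 213 and 211 RPKM against 231, 210 and 162 RPKM, and its groups overlapped.

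**Figure D2:**
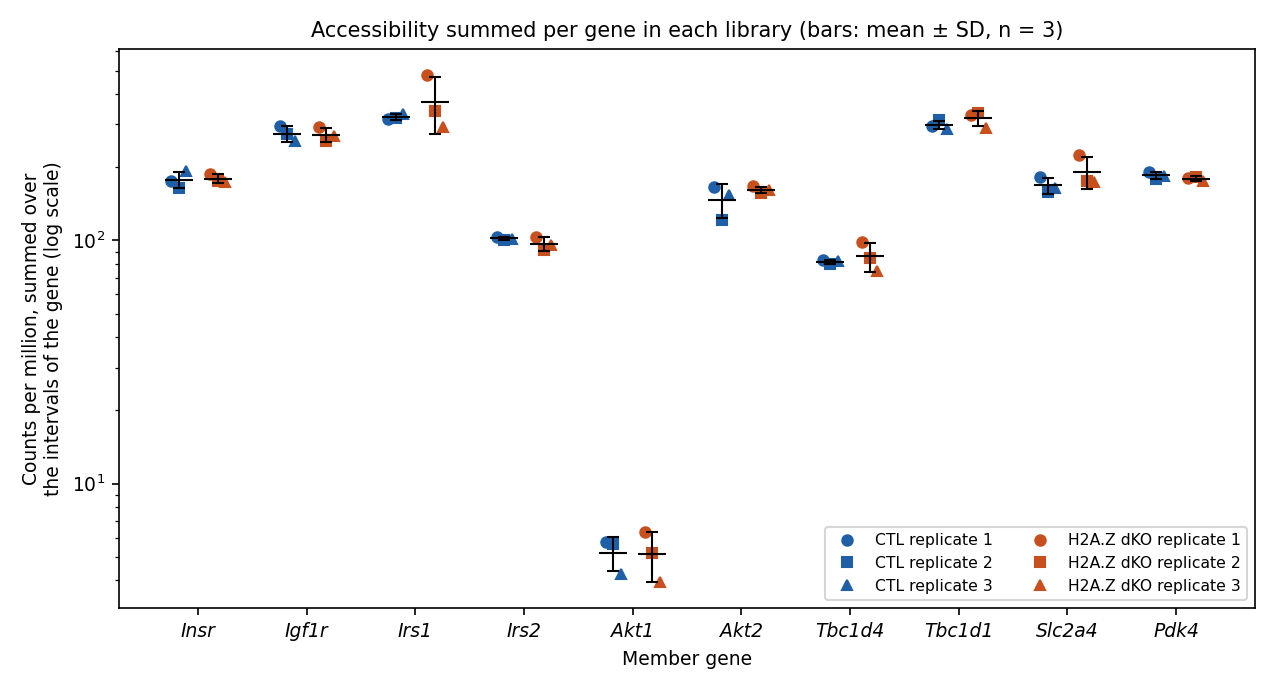
Summed CPM (y axis, log scale) over the intervals of each member gene (x axis, by role from receptor to metabolism) in the 3 CTL libraries, in blue, and the 3 dKO-labelled libraries, in orange; symbols are replicates and bars the mean ± SD (n = 3). The groups overlap in all 10 genes, and H2A.Z dKO replicate 1 is the highest library for Irs1, Slc2a4, Tbc1d4, Akt2 and Akt1.

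The AKT kinases pass the signal on to vesicle traffic, glycogen synthesis and FoxO factors, with AKT2 as the form most tied to glucose uptake. Akt1 could hardly be measured in the intervals of this table. Its only interval, Peak_28444, lies upstream at −615 bp, is 27 bp wide and rests on 35, 26 and 15 fragment ends in CTL against 36, 24 and 20 in the dKO-labelled libraries. The confidence interval of the sum ran from 66.7% to 143% of CTL, the widest of the 10 genes. Akt2 had 7 intervals, all of them at its alternative TSS. Its sum was 166, 121 and 154 CPM in CTL and 167, 157 and 161 CPM in the dKO-labelled libraries, with CTL replicate 2 the low library. The log2 fold change was 0.13 (SE 0.11, adjusted p = 0.967, edgeR), and 0.0098 without CTL replicate 2. The interval over the first TSS, Peak_14858 (chr7:28376530-28376785), had the smallest p of all members and was the other one with an unadjusted p under 0.05. It had 131, 121 and 120 RPKM in CTL and 170, 141 and 155 RPKM in the dKO-labelled libraries, all 3 above CTL. The log2 fold change was 0.33 (SE 0.15, adjusted p = 0.972, edgeR), and 0.25 to 0.39 when each library was left out. Its neighbour Peak_14859 had groups that did not overlap either, at 121, 89.3 and 124 RPKM against 178, 135 and 125 RPKM. The highest Akt2 interval, Peak_14863, showed no such order, with 227, 193 and 259 RPKM in CTL and 213, 272 and 217 RPKM.

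Both Rab GTPase-activating proteins, which hold GLUT4 vesicles back until they are phosphorylated, had summed levels on which the groups overlapped. TBC1D4, the target of AKT in the insulin response, had 83.1, 80.1 and 82.4 CPM in CTL and 98.4, 84.6 and 74.7 CPM in the dKO-labelled libraries. Replicates 1 and 3 of the latter lay on opposite sides of CTL, and the log2 fold change was 0.072 (SE 0.11, adjusted p = 0.982, edgeR), or −0.041 without replicate 1. Its highest promoter interval, Peak_31325, had 117, 118 and 102 RPKM in CTL against 178, 107 and 78.0 RPKM. TBC1D1, which responds to muscle contraction as well, had 297, 312 and 288 CPM in CTL and 328, 333 and 291 CPM. Here 2 of the 3 dKO-labelled libraries were above CTL, and the log2 fold change was 0.088 (SE 0.095, adjusted p = 0.981, edgeR), and 0.053 to 0.14 when each library was left out. Only 16.6% of the Tbc1d1 counts came from promoter intervals. The largest fold change of any member in the fit of all 6 libraries was at a distal Tbc1d1 interval, Peak_10530, which is 26 bp wide and held 15, 7 and 10 counts against 11, 21 and 18, a log2 fold change of 0.53 (SE 0.35, adjusted p = 0.972, edgeR). It was 0.26 without H2A.Z dKO replicate 2, where Akt2 Peak_14859 at 0.45 was above it. Without CTL replicate 2 it was 0.32, where Tbc1d4 Peak_31322 at −0.53 was larger in size. Without H2A.Z dKO replicate 3 it was 0.46, where Slc2a4 Peak_24940 at 0.53 was above it. Without H2A.Z dKO replicate 1 it was 0.83 (adjusted p = 0.566, edgeR). The promoter interval Peak_10533 at an internal TSS had 60.8, 69.8 and 68.5 RPKM in CTL and 87.7, 83.8 and 88.6 RPKM in the dKO-labelled libraries, without overlap, on 15 to 31 counts per library (adjusted p = 0.972, edgeR).

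Slc2a4, the gene of GLUT4, lies at chr11:69756045-69761690 and is the shortest member, with all of its 9 intervals within 1 kb of a TSS. Its sum was 183, 158 and 165 CPM in CTL and 225, 176 and 174 CPM in the dKO-labelled libraries. Replicate 1 was high and the other two lay within the range of CTL. The level was 114% of CTL (95.8% to 135%; log2 fold change 0.18, SE 0.11, adjusted p = 0.967, edgeR), with a log2 fold change of 0.048 without H2A.Z dKO replicate 1. Along the promoter the sign was not uniform. The intervals at the TSS, downstream of it and up to −399 bp were higher in the dKO-labelled libraries, by log2 fold changes of 0.14 to 0.35, those at −632 and −820 bp had −0.44 and −0.18, and the one at −947 bp had 0.055. Without H2A.Z dKO replicate 1 the first 6 gave −0.0055 to 0.23. When each library was left out, Peak_24943 at −820 bp ran from −0.31 to −0.073 and Peak_24944 at −947 bp from −0.058 to 0.28, so that only the sign of the latter turned. The interval with the MEF2 match, Peak_24940, had 148, 120 and 137 RPKM in CTL and 225, 167 and 126 RPKM in the dKO-labelled libraries, where replicates 1 and 2 were above CTL and replicate 3 was within it. Its log2 fold change was 0.35 (SE 0.18, adjusted p = 0.972, edgeR). It was 0.11 without H2A.Z dKO replicate 1 and 0.53 without replicate 3 (adjusted p = 0.874, edgeR). The overlapping interval Peak_24941 holds the same match and covers 205 of its 223 bp. The interval at −632 bp, Peak_24942, had 328, 333 and 272 RPKM in CTL and 236, 216 and 241 RPKM in the dKO-labelled libraries, all 3 below CTL. It is 26 bp wide, rests on 25 to 52 counts per library, and did not pass the test (log2 fold change −0.44, SE 0.23, adjusted p = 0.972, edgeR). In an intron Peak_24936 had 114, 107 and 105 RPKM in CTL and 140, 128 and 128 RPKM, again without overlap (log2 fold change 0.28, SE 0.19, adjusted p = 0.972, edgeR).

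Pdk4 had nearly the same level in both groups. Of its pair of intervals, Peak_12413 lies inside Peak_12412, so the gene sum counts its fragment ends more than once. The sum was 192, 180 and 185 CPM in CTL and 181, 183 and 175 CPM in the dKO-labelled libraries. That is 96.9% of CTL (85.0% to 110%, log2 fold change −0.046, SE 0.087, adjusted p = 0.982, edgeR). Leaving out each library gave −0.068 to −0.020 for the sum. Peak_12412 alone, which covers both, had 141, 127 and 136.5 CPM in CTL and 133, 132 and 129 CPM in the dKO-labelled libraries. Its log2 fold change was −0.039 (SE 0.098). The interval printed above, Peak_12413 at −406 bp, had 230, 237 and 220 RPKM in CTL and 217, 231 and 209 RPKM, and H2A.Z dKO replicate 1 was not high there. The wider Peak_12412, which reaches the TSS, had 222, 201 and 215 RPKM against 210, 209 and 203 RPKM.

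**Figure D3:**
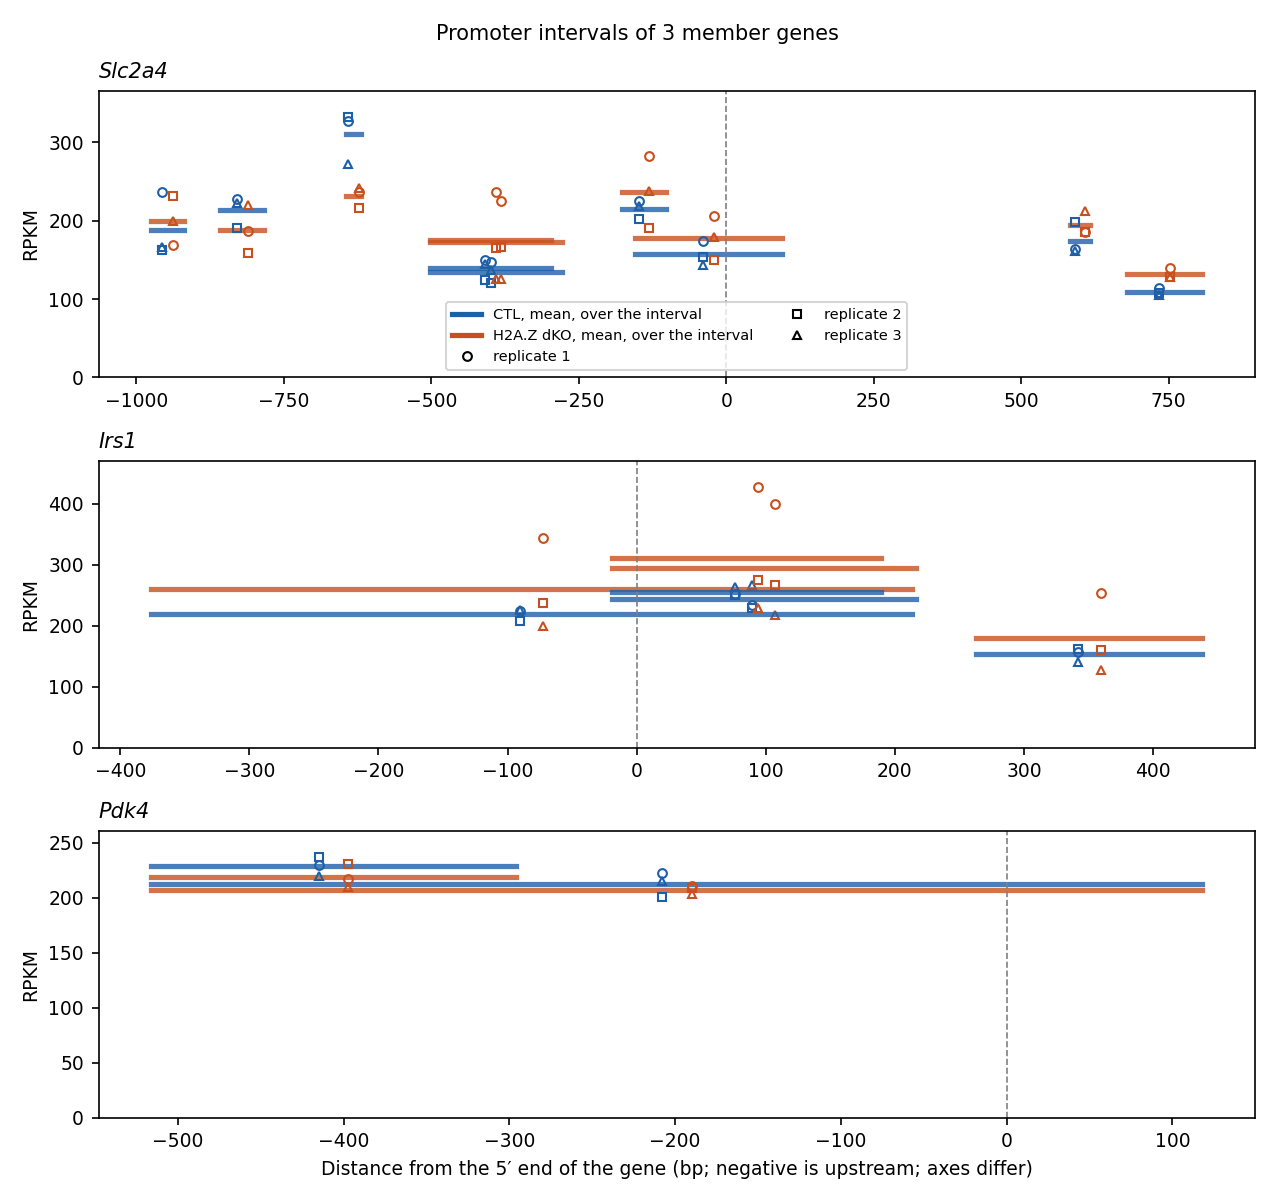
RPKM (y axis, from 0) at the promoter intervals of Slc2a4, Irs1 and Pdk4 against distance from the 5′ end of the gene (x axis, bp). Horizontal lines span the interval at the group mean, CTL in blue and H2A.Z dKO in orange, and open symbols are the libraries. At Irs1 H2A.Z dKO replicate 1 lies above all others, at 254 to 428 RPKM, whereas the Pdk4 libraries stay between 201 and 237 RPKM.

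The promoters of the members were also ordered by level. By the promoter interval of highest mean RPKM over the 6 libraries, the order was Irs1 (283 ± 72.5 RPKM, SD over 6 libraries), Slc2a4 (271 ± 49.2), Irs2 (235 ± 11.1), Akt2 (230 ± 29.7), Pdk4 (224 ± 10.4), Akt1 (192 ± 34.1), Insr (130 ± 14.5), Igf1r (132 ± 33.4), Tbc1d4 (117 ± 33.4) and Tbc1d1 (105 ± 7.29), ranked on the mean of log2(RPKM + 1). Against all promoter intervals, Irs1 was at the 97.1 percentile and Tbc1d1 at the 26.7 percentile. None of the 9 pairs of neighbours in this order passed an exact sign-flip permutation test over the 6 libraries (two-sided, adjusted p of 0.141 to 0.969), which cannot give less than p = 0.03125 for a pair. That smallest value was reached by Akt1 over Insr, by a log2 difference of 0.54 ± 0.27 (SD, n = 6, exact permutation test), and by Igf1r over Tbc1d4, by 0.19 ± 0.20 (SD, n = 6, exact permutation test), each higher in 6 of 6 libraries. The neighbours and their direction were taken from an order of the same values, so the test cannot decide that order. The order pools groups whose own orders by mean RPKM differed. In CTL it was Slc2a4 (311 ± 33.6 RPKM, SD, n = 3), Irs1 (255 ± 7.59), Irs2, Pdk4, Akt2, Akt1, Insr, Igf1r, Tbc1d4 and Tbc1d1. In the dKO-labelled libraries it was Irs1 (310.5 ± 104 RPKM, SD, n = 3), Akt2 (234 ± 32.9), Slc2a4 (231 ± 13.1), Irs2, Pdk4, Akt1, Igf1r, Insr, Tbc1d4 and Tbc1d1. Irs1 was above Slc2a4 in only 2 of 6 libraries. Without H2A.Z dKO replicate 1, Irs1 was at 254 RPKM and Slc2a4 at 278 RPKM, so that Slc2a4 came first, as it also did in the log2 ranking without H2A.Z dKO replicate 2. The places of Slc2a4, Akt2 and Akt1 rest on intervals of 26, 47 and 27 bp, and by the methods fragment ends were widened before they were counted, so that narrow intervals also collect ends from beside them. With intervals of at least 100 bp, a limit chosen after the values were seen, the order was Irs1, Irs2, Pdk4, Slc2a4, Akt2, Insr, Igf1r, Tbc1d4 and Tbc1d1. Slc2a4 then stood at 168 ± 23.5 RPKM and Akt2 at 160.5 ± 30.02 (SD over 6 libraries), and Akt1 dropped out.

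**Figure D4:**
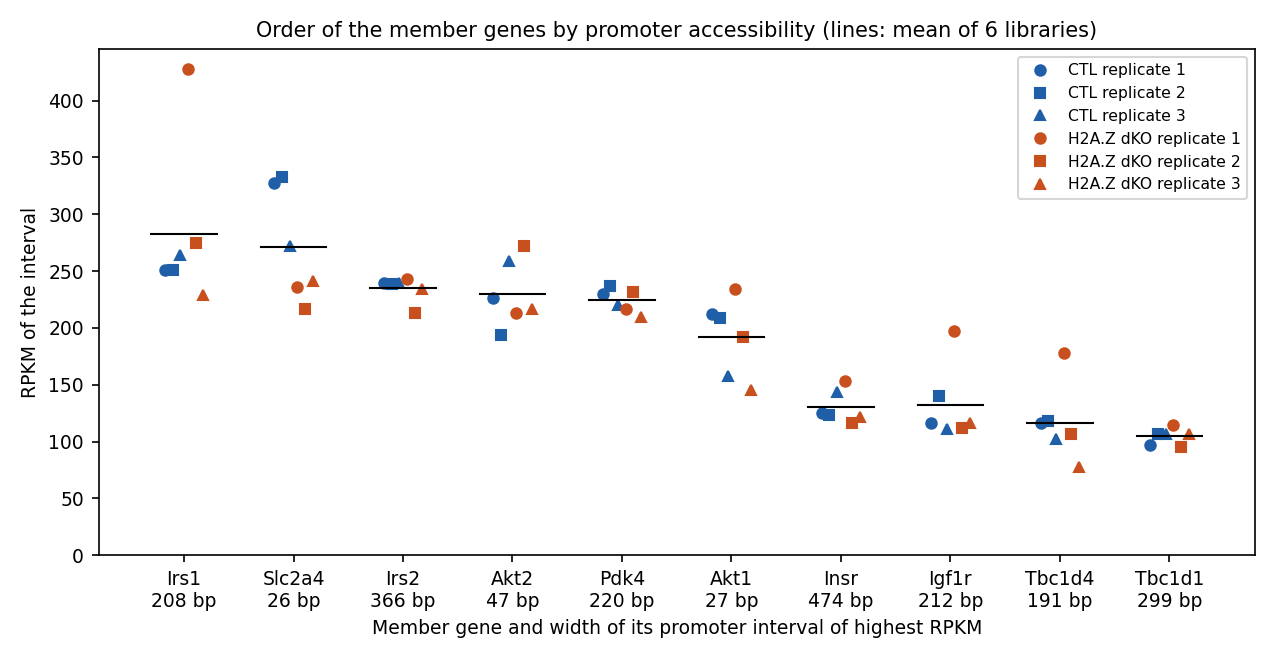
RPKM (y axis, from 0) of the promoter interval of highest mean RPKM for each member gene (x axis, with the width of the interval), in the 3 CTL libraries and the 3 dKO-labelled libraries; black lines are means of the 6 libraries. Genes are ranked on the mean of log2(RPKM + 1); the means of RPKM run from 283 for Irs1 to 105 for Tbc1d1, and the ranges of the libraries overlap in all 9 pairs of neighbours.

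The lean towards higher values at member promoters fell most when H2A.Z dKO replicate 1 was left out, and less without CTL replicate 2. Of the 32 promoter members, 24 were higher in the dKO-labelled libraries (75.0%, beside 52.7% of all promoter intervals). Their median log2 fold change was 0.13 beside 0.011 over all promoter intervals. Slc2a4 gave 9 of the 32, Akt2 7 and Irs1 4, and overlapping intervals share fragment ends. The 32 are therefore not separate observations. By the authors' listing, 21 of the 32 were in H2A.Z dKO only. Of the 33 distal members 15 were higher (45.5%, beside 52.3% of all distal intervals), with a median of −0.0072 beside 0.014 over all distal intervals. H2A.Z dKO replicate 1 was the highest of the 6 libraries in 21 of the 32 promoter members (65.6%), with a median deviation of 0.29 (log2) from the mean of the 6, beside 0.083 over all promoter intervals. At the distal members it deviated by −0.14, beside −0.13 over all distal intervals. Without this library 13 of the 32 promoter members were higher, beside 8416 of all 20826, with medians of −0.0198 and −0.0395. Of the 33 distal members 22 were then higher, beside 11595 of all 18942, with medians of 0.0754 and 0.0765. Without CTL replicate 2, 20 of the 32 promoter members were higher, with a median of 0.088 beside 0.015 over all promoter intervals. CTL replicate 2 deviated by −0.11 at the promoter members, beside 0.011 over all promoter intervals. The GC content of the 200-bp windows moved with the deviation of H2A.Z dKO replicate 1. Its median was 65.0% at promoter and 53.0% at distal members, the same medians as over all promoter and all distal intervals. Across the 65 members, Pearson's r between GC content and the difference of H2A.Z dKO replicate 1 from the other 5 libraries was 0.51, and across all intervals it was 0.37. Windows of one gene share sequence and all points share the same libraries, so this is a description. The windows at 60% to 70% GC had a median difference of 0.32 in 18 members, beside 0.065 in 10361 intervals, and those at 50% to 60% had −0.11 in 25 members and −0.11 in 15505 intervals. Those at 70% GC or more had a median difference of 0.35 in 11 members, 9 of them above 0, beside 0.20 in 6960 intervals, and those at 40% to 50% had −0.17 in 11 members, 4 of them above 0, beside −0.19 in 6498 intervals. The Irs2 window printed above has 77.5% GC with a difference of 0.060, and the Slc2a4 window with the MEF2 match has 58.0% GC with a difference of 0.70. The part of GC content in the fold changes was not tested.

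**Figure D5:**
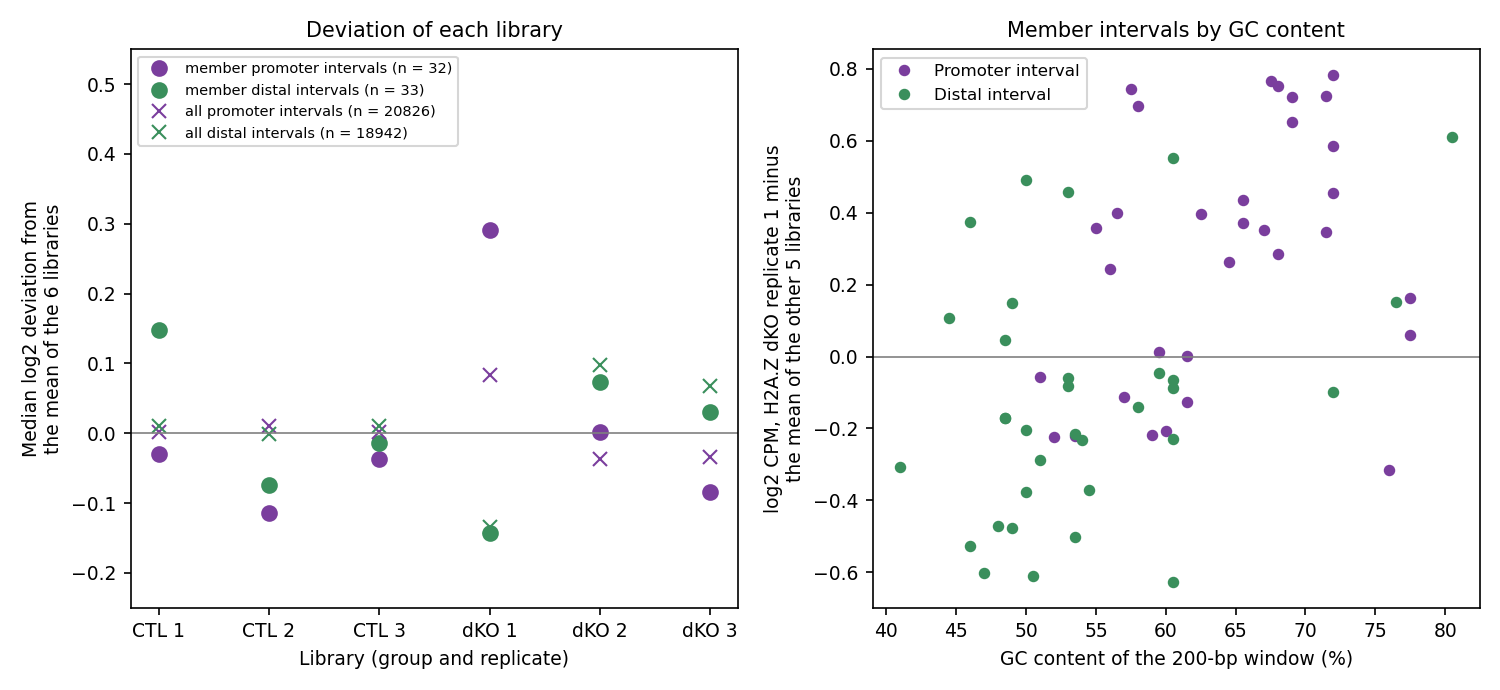
Left, the median log2 deviation of each library from the mean of the 6 (y axis), for member and all intervals at promoters and away from them; H2A.Z dKO replicate 1 is at 0.29 for member promoters and −0.14 for distal members. Right, GC content of the 200-bp window (x axis, %) against the log2 CPM of H2A.Z dKO replicate 1 minus the mean of the other 5 libraries (y axis) for the 65 members.

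The authors' listing of each interval by group and the motifs were also compared with the rest of the table. The listing put 19 members in both groups (29.2%, beside 38.7% of all intervals), 38 in H2A.Z dKO only (58.5%, beside 43.4%) and 8 in CTL only (12.3%, beside 17.9%). At promoters the share of H2A.Z dKO only was 65.6% beside 31.7%, and at distal intervals it was 51.5% beside 56.3%. Fragment ends of all 6 libraries were counted in every member, whatever its listing. The counts of higher and lower members are not independent of the listing. The part of the listing in the fold changes was not tested. Of the 200-bp windows of the 65 members, 40 held an E-box (57.2% of all intervals), 17 a GC box (35.8%), 16 a CCAAT box (22.8%), 3 a TATA box (TATAAA, 4.604%) and 0 an NRF1 site (its palindromic consensus, 0.812%). The FoxO letters stood in 4 member windows, against 2.03% of all intervals: Peak_12413 of Pdk4, Peak_17142 of Insr, Peak_15580 of Igf1r and Peak_31321 of Tbc1d4. The MEF2 match of Slc2a4 lay in 2 overlapping windows, against 1.29% of all intervals and 0.567% of promoter intervals. None of the 4 FoxO windows was centred on an interval with an unadjusted p under 0.05. The log2 fold changes of these intervals were −0.066, 0.0023, −0.0021 and −0.0072 in that order. Where an interval is narrower than its window, a match can lie outside it.

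No other gene of the pathway passed the test either. A list of 81 ligands, adaptors, lipid and protein kinases, Rab and SNARE proteins of GLUT4 traffic, contraction-responsive kinases and pyruvate dehydrogenase subunits was read from the fit over all genes, and 75 of them had an interval. Of these, 47 were higher and 28 lower in the dKO-labelled libraries, with a median log2 fold change of 0.028 beside −0.0019 over all genes, and 0 passed the test of edgeR (also 0 with DESeq2 and limma voom). At an unadjusted p under 0.05 there were 3 higher, against 1.97% of all genes, and 1 lower, against 2.37%. The 3 were Prkaa2, the catalytic AMPK subunit α2 of muscle (log2 fold change 0.42, SE 0.15), Prkag3, a muscle AMPK subunit (0.31, SE 0.14), and Sos1, an exchange factor for Ras (0.42, SE 0.20), each with adjusted p = 0.967 (edgeR). The Prkaa2 counts were 228, 152 and 128 in CTL and 324, 220 and 195 in the dKO-labelled libraries, or 35.5 ± 2.32 against 47.6 ± 9.30 CPM (SD, n = 3). For Sos1 the counts were 505, 450 and 339 against 1008, 440 and 486, so that replicate 1 alone was high, and without it the log2 fold change of Sos1 was 0.057 (SE 0.096). Without that library Prkaa2 stood at 0.27 (SE 0.14) and Prkag3 at 0.26 (SE 0.15). The lower genes of smallest p were Stk11, the kinase that activates AMPK (−0.21, SE 0.091), Pdp2, a pyruvate dehydrogenase phosphatase that works against PDK4 (−0.21, SE 0.10), and Pdhb, a pyruvate dehydrogenase subunit (−0.16, SE 0.098), each with adjusted p = 0.967 (edgeR). Pdhb was at −0.070 (SE 0.076) without H2A.Z dKO replicate 1. Stk11 was at 213 ± 12.6 CPM in CTL and 184 ± 5.14 CPM in the dKO-labelled libraries (SD, n = 3). By step of the pathway, the medians lay between −0.047 for the 8 pyruvate dehydrogenase genes and 0.18 for Igf1, the only ligand gene with an interval, and the 19 measured genes of glucose transport had a median of 0.026.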

How the data were processed

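ATAC-seq was analysed for 3 CTL and 3 H2A.Z dKO libraries of mouse muscle nuclei. By their methods, the authors trimmed adapters (Trimmomatic), aligned pairs to mm9 (Bowtie2 in the submitters' notes), removed duplicates (Picard), shifted fragment ends for Tn5, called peaks with MACS2 and merged the regions of both groups. The deposited values are counts of fragment ends per interval and library, not normalized, in 39768 intervals. The methods describe a larger set of merged intervals than the table holds; the others were not analysed here, so a gene with few or no intervals here may have more there. Coordinates are as deposited, and whether they count from 0 is not given in the sources used here. Columns of the authors' own DESeq2 comparison (fold changes, p-values) were not used.

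Members, lists and tests were chosen with earlier results of these data known. Named with values are each member's promoter and distal interval of highest RPKM and the smallest p in each direction; others named were chosen after their values were seen. TMM factors ran from 0.971 to 1.02. Counts were fitted in R 4.3.3 by the robust quasi-likelihood method of edgeR 4.0.16, without filter or block, over all intervals and over sums for 13734 genes, with Benjamini-Hochberg adjustment and a threshold of 0.05. CPM and RPKM use library sums times TMM factors and interval width. Overlapping intervals share fragment ends, which the gene sums count more than once. Alternatives were DESeq2 1.42.0, limma voom 3.58.1, other scalings, a filter, a replicate block, other choices of intervals, and each library left out; the counts of directions without a library were chosen after the values were seen. The test was tried on simulated counts. Windows and motifs were read from mm9 with pysam 0.24.0 in Python 3.11.15. With 3 against 3 libraries an exact test cannot go below p = 0.1. RNA-seq and ChIP-seq were not analysed here.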

Additional observations from a re-analysis of the deposited data

How the results depend on the processing

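No member interval, member gene sum or gene of the pathway list passed an adjusted p of 0.05 under any alternative tried, and 519 of the 558 values computed kept their direction and their side of the threshold. The number of members with an unadjusted p under 0.05, 2 in the reported fit, was 0 with DESeq2 and 0 with the replicate block (4.42% of all intervals), and 0 to 7 when each library was left out; without H2A.Z dKO replicate 3 it was 7 (10.8%, against 5.60% of all intervals), namely 4 Irs1 and 2 Slc2a4 promoter intervals and a distal Tbc1d1 interval. The median log2 fold change of the members was lowest, at −0.0022, without CTL replicate 2, and highest, at 0.11, without CTL replicate 1. With promoter intervals alone the sum of Insr turned to −0.014 and that of Igf1r to 0.22. When each library was left out in turn, at least 1 of the fits moved the log2 fold change by over 1.5 times in 60 of the 65 intervals and in all 10 gene sums, and turned its sign in 40 intervals and 5 sums. For the gene sums, Akt1 ran from −0.23 to 0.12, Igf1r from −0.073 to 0.042, Insr from −0.037 to 0.077, Irs1 from −0.026 to 0.34 and Tbc1d4 from −0.041 to 0.15. Among the promoter and distal intervals of highest level of each gene, Akt1 Peak_28444 ran from −0.23 to 0.12, Akt2 Peak_14863 from −0.067 to 0.15, Igf1r Peak_15574 from −0.10 to 0.36, Insr Peak_17138 from −0.098 to 0.072, Insr Peak_17142 from −0.13 to 0.078, Irs1 Peak_886 from −0.020 to 0.46, Tbc1d1 Peak_10525 from −0.0061 to 0.32, Tbc1d1 Peak_10528 from −0.027 to 0.10, Tbc1d4 Peak_31323 from −0.21 to 0.19 and Tbc1d4 Peak_31325 from −0.30 to 0.34. With 37 bp added to each width, chosen after the values were seen, the order of promoter levels was Irs1, Irs2, Pdk4, Akt2, Insr, Slc2a4, Igf1r, Tbc1d4, Tbc1d1 and Akt1, and 0 neighbours passed. The difference at the floxed segment of H2afz ran from −0.31 to 0.016. The cause was not tested for any of these.

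Same-numbered libraries share only a number: the correlations of their deviations from the group means were −0.088, −0.051 and −0.028. With the replicate block 0 members passed an adjusted p of 0.05, and Insr Peak_17142 turned to −0.0049. Tbc1d4 Peak_31323 did not enter the fit with the filter on low counts and has no value there. Counting depth limits the narrow intervals most, with Akt1 measured by 15 to 36 counts per library.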
